A study of Homo sapiens with 12 samples.

Results

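The YAP/TEAD genes described here are 10 named genes of the 17508 in a table of exon and intron counts. They are the coactivators YAP1 and WWTR1 (which encodes TAZ), the DNA-binding factor TEAD1, and the genes CCN1, CCN2, ANKRD1, AMOTL2, AJUBA, LATS2 and AXL, which are targets or regulators of the pathway. The members were listed by symbol and looked up by Ensembl identifier. The poly(A) RNA came from TYK-nu, a human cell line labelled as a high-grade serous ovarian adenocarcinoma. Cells had received either 15 μM cisplatin, a platinum drug that binds DNA, or DMSO as the control, and were taken after 24 or 72 h, which gave 4 groups of 3 libraries. All 12 libraries were of this one line, and none was an untreated culture without DMSO or cisplatin. The study grew the cells in triplicate, without stating whether the triplicates came from separate days or passages, so the p-values measure only the spread between these libraries, which may be technical.

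The 12 libraries held between 18526830 and 68753262 exon and intron counts, with 18526830 to 36911333 at 24 h and 26921033 to 68753262 at 72 h. Levels are given as CPM, counts scaled to library size (per 1e6) with TMM factors, which was done separately for exon and for intron counts. Changes are log2 differences between group means from the quasi-likelihood test of edgeR, and a gene is called changed where the p-value, adjusted by the Benjamini-Hochberg method over all genes tested, was under 0.05. In bulk RNA, fewer cells that express a gene and less RNA per cell cannot be told apart.

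The markers of the labelled cell type were checked first. KRT18, a keratin of simple epithelia, ran from 133 to 181 CPM over the 12 libraries, and its partner KRT8 from 11.0 to 34.5 CPM. PAX8, a factor of Müllerian-type carcinomas, did not exceed 0.0758 CPM in any library, KRT7 did not exceed 0.303 CPM, and EPCAM did not exceed 1.68 CPM. WT1 lay between 1.59 and 4.19 CPM, and MUC16 had no exon entry. PECAM1 and CDH5, which mark endothelial cells, were in contrast abundant in every library, at 1350.3 to 2491 CPM and 658 to 1046 CPM, while VWF stayed at 1.20 CPM or lower. The leukocyte marker CD68 lay between 322 and 657 CPM, and PTPRC was at 0 in all libraries, as was the fibroblast gene LUM. Among the carcinoma markers, PAX8 and KRT7 were thus near 0 while KRT18 was not. Of the endothelial markers, PECAM1 and CDH5 were abundant in libraries labelled as this line, while VWF was low. These markers leave it in doubt whether the table is of the labelled line, its identity was not tested, and the results are for the libraries as labelled.

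YAP1 and TAZ are the outputs of the Hippo pathway. When its kinases, ending in LATS1 and LATS2, phosphorylate them, they are held in the cytoplasm or degraded, which is known to occur as cultures become dense. Otherwise they enter the nucleus, bind TEAD factors and switch on genes such as CCN1, CCN2 and ANKRD1, among them LATS2 and AMOTL2, which restrain YAP1 in return. The RNA level of YAP1 or WWTR1 does not measure how much of their protein is nuclear. Cell density was not among the labels. Time in culture, time in DMSO or cisplatin and any rise in density therefore cannot be told apart in the comparisons of 72 with 24 h.

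TEAD factors bind the motif GGAATG, read CATTCC on the other strand. It was searched on both strands in the 250 bases before each transcription start in RefSeq (GRCh38.p14), in which 8 of the 10 members were matched by symbol. CCN1 and TEAD1 had no matched window. Of 35116 windows, 4175 (11.9%) held at least 1 match, 330 (0.940%) at least 2 and 29 (0.0826%) at least 3. CCN2 held 3 matches, which began 169, 104 and 95 bases before the start, and ANKRD1 held 2, at 220 and 128 bases. These windows are shown because they held the most matches among the members, and because the levels of CCN2 and ANKRD1 stood far apart. Both genes lie on the minus strand, the windows are chr6:131951373-131951622 for CCN2 and chr10:90921088-90921337 for ANKRD1, and capitals mark the motif.

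CCN2: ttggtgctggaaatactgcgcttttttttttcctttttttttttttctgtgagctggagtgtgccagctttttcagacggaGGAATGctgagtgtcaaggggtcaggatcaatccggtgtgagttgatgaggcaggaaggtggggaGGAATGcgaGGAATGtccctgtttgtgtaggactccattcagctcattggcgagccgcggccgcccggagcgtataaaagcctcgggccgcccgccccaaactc

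ANKRD1: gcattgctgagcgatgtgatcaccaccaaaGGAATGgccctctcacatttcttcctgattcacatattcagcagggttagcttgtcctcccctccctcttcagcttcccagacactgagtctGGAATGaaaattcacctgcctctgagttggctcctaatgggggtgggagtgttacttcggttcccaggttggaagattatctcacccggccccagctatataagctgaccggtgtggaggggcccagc

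YAP1 held 1 match, 162 bases before its start. AMOTL2, AJUBA and AXL each held 1 before the second of their listed starts, at 69, 59 and 212 bases. No window of WWTR1 or LATS2 held these letters. A match describes the letters only, and binding was not measured.

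Levels were then compared between the members per kilobase of merged exon in GENCODE release 44. The exon annotation used for counting may have covered less than this length, which limits the comparison between genes but not between groups. In DMSO at 24 h, CCN1 was highest at 240 ± 10.1 CPM per kilobase (SD, n = 3), followed by ANKRD1 at 92.6 ± 2.74. LATS2 stood at 20.5 ± 0.911, YAP1 at 15.9 ± 0.427, WWTR1 at 9.05 ± 0.345, AMOTL2 at 8.77 ± 0.321, AXL at 6.40 ± 0.580 and TEAD1 at 3.71 ± 0.172 CPM per kilobase. The ranges of the neighbours WWTR1 and AMOTL2 overlapped, and the others in this order did not. CCN2 lay between 0.0102 and 0.263 CPM per kilobase over all 12 libraries. At 72 h AXL had moved up beside YAP1, at 12.1 ± 0.550 against 12.8 ± 0.306 CPM per kilobase in DMSO and 13.9 ± 0.563 against 13.7 ± 0.319 in cisplatin (SD, n = 3), and in both groups the 2 ranges overlapped.

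**Figure D1:**
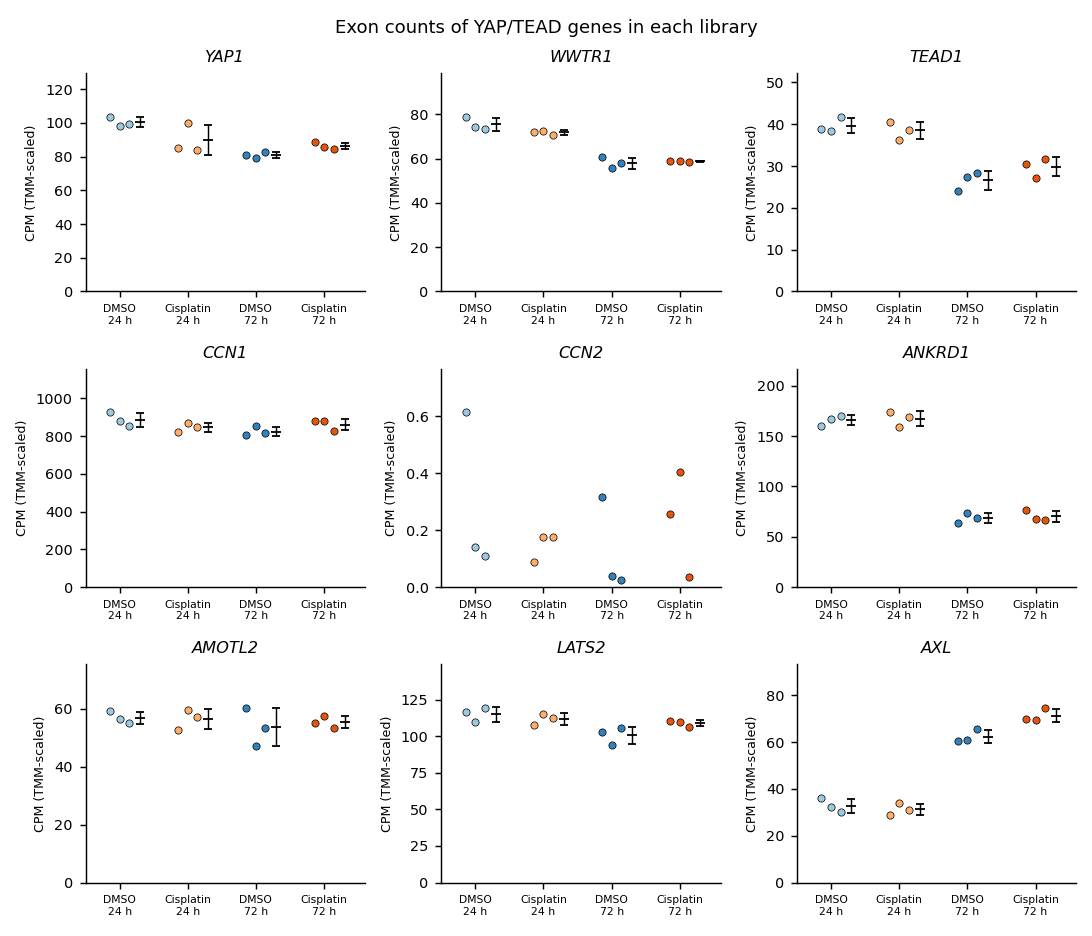
Exon CPM (vertical axes, from 0, on a scale of their own for each gene) of the 9 members with an exon entry in each of the 12 libraries. Points are libraries, and the bar beside them is the mean and SD of 3 (left out for CCN2, whose values come from 26 counts or fewer per library). ANKRD1 fell and AXL rose between 24 and 72 h with no overlap, while CCN1 stayed between 804 and 926 CPM.

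The first comparison asks how the members changed from 24 to 72 h in DMSO. Of the 8 members tested for exon counts, 5 fell (YAP1, WWTR1, TEAD1, ANKRD1 and LATS2), 1 rose (AXL), and CCN1 and AMOTL2 did not pass. Such changes were frequent, with 65.1% of 10444 genes called (3404 higher and 3392 lower), so the 6 of 8 called members do not set the group apart by count. The median change was -0.25 over the 8 members and 0.015 over all genes. The groups of 3 did not overlap for 7 of the 8 members, against 67.4% of all genes. In cisplatin, 4 of the 8 members were called from 24 to 72 h (ANKRD1, WWTR1 and TEAD1 lower, AXL higher), against 63.5% of all genes, with a median of -0.048 over the members and 0.017 over all genes. The same 4 members were those without overlap, against 67.2% of all genes.

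The genes of the marker lists moved between the same times, not all in one direction. The summed CPM of the 3 endothelial markers was 3355 to 3479 in the 24 h libraries and 2033 to 2307 in the 72 h libraries. This sum was carried by PECAM1, which changed by -0.82 in DMSO and -0.74 in cisplatin, and CDH5, at -0.56 and -0.38. Other endothelial genes, chosen after their values were seen, did not follow, since TIE1 rose by 0.43 and 0.50, KDR changed by -0.014 and 0.15 (called in cisplatin only), and TEK by -0.092 and -0.044 (not called). The summed level of the 4 leukocyte markers, nearly all of it CD68, was 323 to 379.8 CPM and 593 to 658 CPM. The other leukocyte markers were near 0 and differed in direction, since LYZ fell (at 0.576 CPM or lower in every library), CD3E rose by 1.15 in DMSO and 1.31 in cisplatin (between 0.205 and 0.905 CPM), and PTPRC was at 0 in every library. Of the 8 carcinoma markers, KRT8 rose by 1.29 in DMSO and 1.42 in cisplatin and EPCAM by 2.34 and 2.55, while KRT18 changed by -0.37 and -0.27 and WT1 by -0.78 and -0.26 (the last not called). Their summed level was 179 to 201 CPM at 24 h and 169.97 to 191 CPM at 72 h. The summed level of the 4 fibroblast markers was 0.216 CPM or lower in every library. The part of these shifts in the changes of the members was not tested.

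ANKRD1, a nuclear ankyrin repeat protein and widely used YAP target, had the largest change. Its exon CPM was 160.4, 167 and 170.1 in DMSO at 24 h, and 64.0, 73.9 and 69.1 in DMSO at 72 h. With cisplatin it was 174, 159 and 169 at 24 h, and 76.9, 67.7 and 66.6 at 72 h. Every 24 h library lay above 159 CPM and every 72 h library below 77 CPM, whichever the treatment. The exon counts were 2.40-fold lower at 72 h in DMSO (log2 change -1.26, SE 0.064, edgeR adjusted p = 3.12e-14) and 2.37-fold lower in cisplatin (-1.25, SE 0.063, edgeR adjusted p = 3.83e-14). Only 149 of the 10444 genes tested fell further in DMSO and 100 in cisplatin.

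The intron counts of ANKRD1 fell alongside. They were 114, 102 and 106 CPM of intron counts in DMSO at 24 h against 47.0, 46.4 and 47.0 at 72 h, and 120.1, 126 and 117 against 60.8, 49.5 and 41.2 in cisplatin. Both treatments thus showed times that did not overlap. The log2 changes of intron counts were -1.20 in DMSO (SE 0.15, edgeR adjusted p = 2.49e-09) and -1.25 in cisplatin (SE 0.14, edgeR adjusted p = 1.28e-10). ANKRD1 lies on chromosome 10 from 90912096 to 90921087 on the minus strand of GRCh38, with no other annotated gene overlapping it.

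AXL, a receptor tyrosine kinase that binds GAS6 and a reported YAP target, went the other way. Its exon CPM was 36.1, 32.1 and 30.3 in DMSO at 24 h and 60.6, 60.7 and 65.5 at 72 h. In cisplatin the libraries had 29.0, 33.9 and 31.1 CPM at 24 h and 69.9, 69.3 and 74.6 CPM at 72 h. All 6 libraries at 72 h were above all 6 at 24 h, and the 3 with cisplatin at 72 h were the highest of all 12. The rise was 1.89-fold in DMSO (log2 change 0.92, SE 0.073, edgeR adjusted p = 1.00e-10) and 2.26-fold in cisplatin (1.18, SE 0.073, edgeR adjusted p = 1.31e-12). Among all genes tested, 785 rose further in DMSO and 412 in cisplatin.

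The intron counts of AXL were sparser but rose too. They stood at 15.4, 24.4 and 15.6 CPM of intron counts in DMSO at 24 h and 28.8, 35.9 and 50.5 at 72 h, and at 24.6, 20.6 and 28.1 against 42.5, 41.5 and 50.2 in cisplatin. The log2 changes of intron counts were 1.07 (SE 0.23, edgeR adjusted p = 0.000200) and 0.90 (SE 0.21, edgeR adjusted p = 0.000747).

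Among the upstream members, WWTR1 fell in every comparison of the times. Its exon CPM was 78.9, 74.3 and 73.5 in DMSO at 24 h and 60.6, 55.6 and 57.8 at 72 h, against 72.2, 72.7 and 70.6 and then 58.9, 58.9 and 58.6 in cisplatin. The spread between libraries was small, and the times did not overlap under either treatment. Its log2 change of exon counts was -0.38 in DMSO (SE 0.057, edgeR adjusted p = 2.85e-06) and -0.29 in cisplatin (SE 0.056, edgeR adjusted p = 9.87e-05). In intron counts, WWTR1 changed by -0.83 (SE 0.19, edgeR adjusted p = 0.000372) in DMSO, with -0.49 (SE 0.18, edgeR adjusted p = 0.0287) in cisplatin. The latter call was lost without cisplatin replicate 1 or 2 at 24 h or replicate 1 or 2 at 72 h, where the change ran from -0.38 to -0.51 (edgeR adjusted p from 0.0524 to 0.174).

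TEAD1, the factor through which YAP1 and TAZ reach DNA, had the lowest mean exon CPM over the 12 libraries among the 8 members tested, at 33.6. Its libraries read 38.9, 38.4 and 41.8 CPM in DMSO at 24 h and 24.0, 27.3 and 28.3 at 72 h, with 40.6, 36.3 and 38.6 and then 30.6, 27.2 and 31.7 in cisplatin. No library at 72 h reached the level of any at 24 h. The log2 change of exon counts was -0.57 in DMSO (SE 0.078, edgeR adjusted p = 8.39e-07) and -0.37 in cisplatin (SE 0.077, edgeR adjusted p = 0.000197). Intron counts of TEAD1 changed by -0.48 (SE 0.24) and -0.40 (SE 0.23), which did not pass. Without DMSO replicate 2 at 72 h, the first was -0.68 and passed (edgeR adjusted p = 0.0474). Over all 11 alternative fits this intron change in DMSO ran from -0.68 to -0.29.

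YAP1 was called in DMSO, while its change in cisplatin did not pass. Its exon CPM was 104, 98.4 and 99.6 in DMSO at 24 h and 80.9, 78.95 and 82.8 at 72 h. In cisplatin it was 85.1, 99.8 and 84.1 CPM at 24 h and 88.5, 85.5 and 84.7 CPM at 72 h. One cisplatin library at 24 h lay with the DMSO libraries and the other 2 lay with the 72 h libraries, so the cisplatin group at 24 h was spread over most of the range. The fall in DMSO was -0.31 (SE 0.062, edgeR adjusted p = 0.000118), and the change in cisplatin was -0.059 (SE 0.062, edgeR adjusted p = 0.414, 95% interval -0.19 to 0.07). In intron counts YAP1 changed by -0.33 in DMSO (SE 0.13, edgeR adjusted p = 0.0514), which passed without DMSO replicate 1 at 24 h (-0.39, edgeR adjusted p = 0.0367), without DMSO replicate 1 at 72 h (-0.39, edgeR adjusted p = 0.0400) and in a fit to the 6 DMSO libraries alone (edgeR adjusted p = 0.0451). Over all 11 alternative fits the intron change of YAP1 in DMSO ran from -0.39 to -0.25. In cisplatin the intron counts of YAP1 changed by 0.16 (SE 0.13).

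LATS2, the kinase that phosphorylates YAP1 and is itself induced by it, gave small changes. Its exon CPM was 116, 109 and 119 in DMSO at 24 h and 103, 94.0 and 105 at 72 h, and in cisplatin 107, 115 and 112 and then 110.0, 109.9 and 107. The DMSO times did not overlap and the cisplatin times did. The log2 change was -0.19 in DMSO (SE 0.057, edgeR adjusted p = 0.00514) and -0.037 in cisplatin (SE 0.056, edgeR adjusted p = 0.580). Its intron counts changed by -0.49 in DMSO (SE 0.18, edgeR adjusted p = 0.0279) and by -0.34 in cisplatin (SE 0.17, edgeR adjusted p = 0.121), of which the first was called. That call was lost without DMSO replicate 2 or 3 at 24 h or replicate 1 or 3 at 72 h, where the change ran from -0.40 to -0.52 (edgeR adjusted p from 0.0542 to 0.124).

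AMOTL2, a scaffold that binds YAP1 and supports its phosphorylation, did not pass in any of the 5 comparisons of exon counts. Its exon CPM lay between 47.1 and 60.2 over the 12 libraries, both ends coming from DMSO at 72 h, with log2 changes of -0.088 (SE 0.075) in DMSO and -0.029 (SE 0.074) in cisplatin. Without DMSO replicate 1 at 72 h, the change in DMSO was -0.18 and passed (edgeR adjusted p = 0.0448). Over all 11 alternative fits this change ran from -0.18 to -0.0081. AJUBA, a LIM protein that inhibits LATS kinases, had no exon entry, so it was read from intron counts alone. Those ran from 17.0 to 35.5 CPM of intron counts with all groups overlapping, and changed by 0.062 (SE 0.25) in DMSO and 0.011 (SE 0.24) in cisplatin. The 95% intervals of AJUBA reached from -0.44 to 0.56 and from -0.47 to 0.49, so a change of moderate size was not detectable in these libraries.

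**Figure D2:**
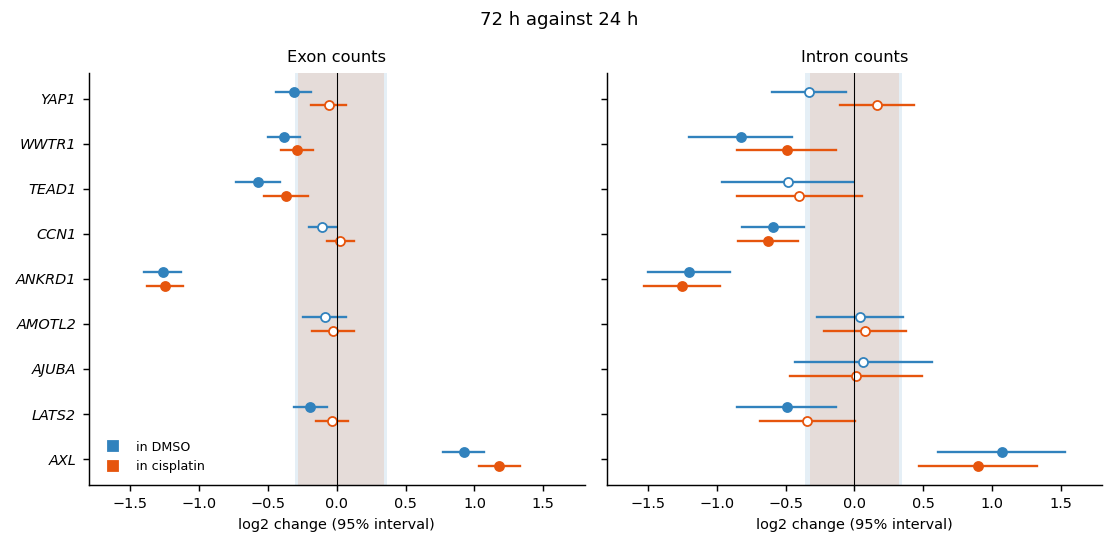
Log2 change from 24 to 72 h (horizontal axis, with its 95% interval) of exon counts (left) and intron counts (right), in DMSO (blue) and in cisplatin (orange). Filled points passed the adjusted threshold of 0.05, open points did not, and the shaded band holds the middle of all genes tested, from the lower to the upper quartile. ANKRD1 lies near -1.2 in all 4 estimates and CCN1 is called in intron counts only.

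CCN1, a secreted matricellular protein and early response gene, was the most abundant member and behaved differently in its exon and intron counts. Exon CPM stood at 926, 882 and 852 in DMSO at 24 h against 804, 851 and 816 at 72 h, and at 823, 868 and 851 against 878, 879 and 826 in cisplatin. The DMSO times narrowly missed overlapping, and the cisplatin times overlapped. The log2 change of exon counts was -0.11 in DMSO (SE 0.047, edgeR adjusted p = 0.0531), just outside the threshold, and 0.024 in cisplatin (SE 0.047, edgeR adjusted p = 0.671). With DESeq2 in place of edgeR, the adjusted p in DMSO was 0.0328, and with DESeq2's size factors in edgeR it was 0.0455, both past the threshold. It also passed without DMSO replicate 3 at 24 h (-0.14, edgeR adjusted p = 0.0239) and without DMSO replicate 2 at 72 h (-0.13, edgeR adjusted p = 0.0350). Over all 11 alternative fits the change in DMSO ran from -0.14 to -0.075.

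The intron counts of CCN1 were lower at 72 h. They were 304, 274 and 234 CPM of intron counts in DMSO at 24 h and 192, 202 and 150.0 at 72 h, and in cisplatin 246, 294 and 298 and then 185, 190.0 and 166. No 72 h library overlapped the 24 h libraries of either treatment. The log2 changes of intron counts were -0.59 (SE 0.11, edgeR adjusted p = 2.94e-05) in DMSO and -0.63 (SE 0.11, edgeR adjusted p = 7.15e-06) in cisplatin. In all, 5 of the 9 members tested for intron counts were called in DMSO (AXL higher, and WWTR1, CCN1, ANKRD1 and LATS2 lower), against 33.4% of 9618 genes, and 4 of 9 in cisplatin (AXL higher, and WWTR1, CCN1 and ANKRD1 lower), against 31.8%. The intron groups of 3 did not overlap for 6 of 9 members in DMSO, against 43.1% of all genes, and for 5 of 9 in cisplatin, against 42.2%.

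The exon/intron ratio, the measure that the study used for splicing, was therefore compared directly. For CCN1 there were 42.0, 47.0 and 47.9 exon counts per intron count in DMSO at 24 h and 62.0, 61.3 and 78.1 at 72 h. In cisplatin there were 43.8, 36.4 and 40.5 at 24 h and 66.9, 63.8 and 66.6 at 72 h. The ratio was higher in all 6 libraries at 72 h than in all 6 at 24 h. In an edgeR test of the ratio with a term for each library, CCN1 rose by 0.56 on the log2 scale in DMSO (SE 0.12, edgeR adjusted p = 0.00201) and by 0.72 in cisplatin (SE 0.11, edgeR adjusted p = 0.000111). It was the only one of 8 members tested that passed in either, where 11.5% of 9380 genes were called in DMSO and 11.9% in cisplatin. The median change of the ratio over all genes was 0.0998 and 0.108, and with TMM factors for each kind of count, which brought these medians to 0.024 and 0.032, the rise of CCN1 was 0.48 and 0.65. CCN1 is a compact gene (chromosome 1, 85580761 to 85584589, plus strand, GRCh38) in which merged exons cover 3698 of 3829 bases, so bases counted as intron may be exonic in some transcript.

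**Figure D3:**
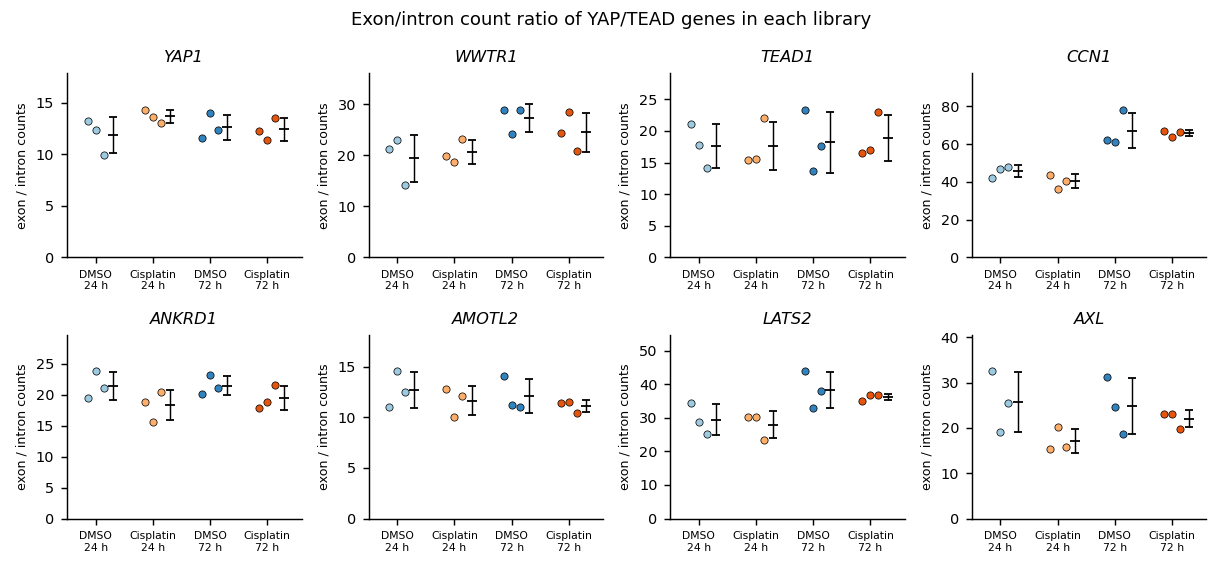
Exon counts divided by intron counts (vertical axes, from 0, on a scale of their own for each gene) in each library for the 8 members with both entries and enough counts. Points are libraries and the bar beside them is the mean and SD of 3. CCN1 lies between 36.4 and 47.9 at 24 h and between 61.3 and 78.1 at 72 h.

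The logistic regression of the study treats each fragment as independent and leaves out the spread between replicates. On counts simulated for cisplatin against DMSO at 72 h only, it called many genes that had not been changed. Exon and intron counts were drawn independently there, so spread shared by both was not kept and such calls may be too many. Its calls on the libraries are given as the output of that test and not as differences beyond the replicate spread. By that test, WWTR1 (0.49, SE 0.14), CCN1 (0.59, SE 0.058) and LATS2 (0.37, SE 0.13) had a higher ratio at 72 h in DMSO, 3 of 8 members against 33.7% of 9739 genes. In cisplatin, WWTR1 (0.33, SE 0.12), CCN1 (0.74, SE 0.050), LATS2 (0.35, SE 0.11) and AXL (0.34, SE 0.15) were called, 4 of 8 against 40.6% of 9818 genes. With a quasi-binomial fit, which includes the spread, 0 of 8 members were called in either treatment, but so few genes were called in all (0.657% in DMSO and 0.988% in cisplatin) that nothing can be read from this about the members. Without DMSO replicate 3 at 24 h, the logistic regression called 1 member and 28.8% of all genes in DMSO. In cisplatin it called 2 members without cisplatin replicate 3 at 24 h, with 39.0% of all genes, and 2 without cisplatin replicate 2 at 72 h, with 34.8%.

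Cisplatin was compared with DMSO at each time, which is the comparison the study was designed for. At 24 h, 0 of 8 members had changed exon counts, where 0% of 10444 genes were called by edgeR (260 genes and 1 member at an unadjusted p under 0.05). At 72 h, 0 of 8 members were called by edgeR (2 at an unadjusted p under 0.05), where 0.0287% of genes were (3, all lower, and 1311 at an unadjusted p under 0.05). DESeq2 called 0 of 8 members and 0% of all genes at 24 h. At 72 h it gave an adjusted p to 3762 genes only and called 2.26% of them, with 0 of the 5 members among them, and gave none for AMOTL2, AXL and TEAD1, of which AXL had an unadjusted DESeq2 p of 0.00836. The intervals limit what could have been missed. At 24 h the largest estimate was that of YAP1, at -0.16 (95% interval -0.29 to -0.03, edgeR adjusted p = 0.9997). Over all 11 alternative fits this YAP1 change ran from -0.25 to -0.12. At 72 h the largest estimate was that of AXL, at 0.19 (95% interval 0.05 to 0.33, edgeR adjusted p = 0.263).

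The side on which these small, uncalled differences lay is given as a description of the libraries, which does not establish a direction. WWTR1 was the only one of 8 members whose groups did not overlap at 24 h, with the cisplatin libraries below DMSO (log2 change -0.073, SE 0.057), where 6.42% of all genes did not overlap. At 72 h, YAP1, LATS2 and AXL were higher in each of the 3 cisplatin libraries than in each of the 3 DMSO libraries, 3 of 8 members against 18.1% of all genes. Their log2 changes were 0.092 (SE 0.062), 0.11 (SE 0.056) and 0.19 (SE 0.069), none of which passed. ANKRD1 differed least at 72 h after WWTR1, at 0.031 (95% interval -0.10 to 0.16), and at 24 h it stood at 0.013 (95% interval -0.12 to 0.14).

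Intron counts gave 0 of 9 members called by edgeR at 24 h (1 at an unadjusted p under 0.05, with 0.0208% of 9618 genes called) and 0 of 9 at 72 h (0 at an unadjusted p under 0.05, with 0.0416% called). DESeq2 called 0 of them as well, with 0% and 0.0312% of all genes. The member with an unadjusted p under 0.05 was YAP1. Its intron counts were 108, 116 and 132 CPM in DMSO at 24 h and 77.8, 90.1 and 90.9 CPM in cisplatin at 24 h, without overlap, which gave a log2 change of -0.45 (SE 0.14, edgeR adjusted p = 0.741). ANKRD1 did not overlap at 24 h either, in the opposite direction, at 120.1, 126 and 117 CPM of intron counts in cisplatin above 114, 102 and 106 in DMSO (log2 change 0.17, SE 0.14, edgeR adjusted p = 0.970). These were 2 of 9 members, against 8.94% of all genes. At 72 h 0 of 9 members were without overlap, against 13.4% of all genes, and YAP1 stood at 103, 82.2 and 96.1 CPM in DMSO and 102, 103 and 83.4 CPM in cisplatin.

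**Figure D4:**
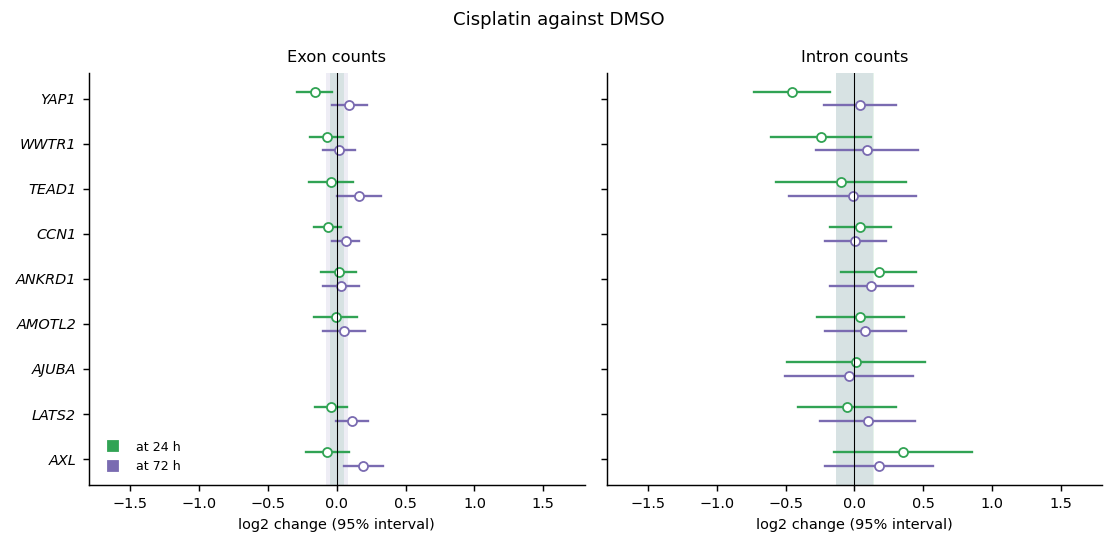
Log2 change of cisplatin against DMSO (horizontal axis, with its 95% interval, on the same scale as for the times) in exon counts (left) and intron counts (right), at 24 h (green) and 72 h (purple). Open points did not pass the adjusted threshold of 0.05, and the shaded band runs from the lower to the upper quartile of all genes tested. No member was called, and YAP1 intron counts at 24 h lay furthest from 0, at -0.45.

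For the exon/intron ratio, 0 of 8 members were called by edgeR at 24 h (0 members and 594 genes at an unadjusted p under 0.05, with 0% of 9380 genes called) and 0 of 8 at 72 h (0 members at an unadjusted p under 0.05, with 0.0213% of genes called). The logistic regression called CCN1 (-0.20, SE 0.053) and ANKRD1 (-0.28, SE 0.084) lower with cisplatin at 24 h, 2 of 8 members, where it called 11.5% of 9678 genes. Of all its calls, 1036 were lower and 74 higher. The median change over all genes was itself below 0, at -0.11 by this test and -0.086 by edgeR. Without DMSO replicate 2 the logistic regression called 1 member at 24 h and 5.18% of all genes, and without cisplatin replicate 2 it called 0 members and 2.53%, so the calls over all genes fell with those of the members. At 72 h it called 0 of 8 members (0 at an unadjusted p under 0.05), where it called 11.4% of 10011 genes. For the 2 members at 24 h, the edgeR estimates were close, at -0.19 (SE 0.12, edgeR adjusted p = 0.833) and -0.25 (SE 0.14, edgeR adjusted p = 0.831). With TMM factors for each kind of count, which brought the edgeR median to -0.0047, the estimate of CCN1 was -0.11 (SE 0.11). The 24 h ratios of ANKRD1 overlapped, at 19.4, 23.8 and 21.0 in DMSO and 18.9, 15.7 and 20.4 in cisplatin.

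Whether the change with time differed between the treatments was tested as an interaction on exon counts. By edgeR 0 of 8 members were called, as were 0% of 10444 genes (2 members and 985 genes at an unadjusted p under 0.05). The largest estimates were 0.26 for AXL (SE 0.10, edgeR adjusted p = 0.496) and 0.25 for YAP1 (SE 0.088, edgeR adjusted p = 0.454), both towards higher exon counts in cisplatin at 72 h. The fall of YAP1 in DMSO is thus not shown to differ from its smaller change in cisplatin. For ANKRD1 the interaction was 0.017 (95% interval -0.17 to 0.20). In intron counts 0 of 9 members were called by edgeR (1 at an unadjusted p under 0.05), where 0.0416% of 9618 genes were. There YAP1 had 0.49 (SE 0.19, edgeR adjusted p = 0.766) and AXL -0.17 (SE 0.32, edgeR adjusted p = 0.974), the latter opposite in sign to its exon value.

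CCN2, a close relative of CCN1 and the target most often used to read YAP activity, was nearly silent. Its exon counts were 16, 4 and 2 in DMSO at 24 h, 2, 6 and 3 in cisplatin at 24 h, 8, 1 and 1 in DMSO at 72 h, and 12, 26 and 1 in cisplatin at 72 h. The intron counts were 0 in 11 libraries and 1 in the remaining one, and the gene passed neither filter, so it was not tested. No group stood apart, since each held a library with 3 counts or fewer. The gene lies on chromosome 6 from 131948176 to 131951372 (minus strand, GRCh38) wholly inside LINC01013 on the plus strand, with 278 of its 2338 exon bases shared. The libraries were made with a kit that keeps the strand, but the strand setting of the counting is not given in the sources used here, so even these few counts are uncertain in origin. YAP1, WWTR1, AXL and AMOTL2 also share exon bases with other annotated genes (628 bases with one antisense gene for YAP1 and 756 with WWTR1-AS1 for WWTR1). AJUBA shares 50 exon bases with the protein-coding ENSG00000259132 on the same strand (chromosome 14, 22946270 to 22982258), whose span covers most of AJUBA, so its intron counts cannot be assigned to AJUBA with certainty.

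The genes whose exon levels followed CCN1 most closely over the 12 libraries, among 8186 genes with a mean log2 CPM of at least 3, were SLC11A2 (Pearson's r = 0.86), ABCC5 (0.84) and TRPC4AP (0.82). These are the highest of 8186 correlations over only 12 libraries, which share their groups and depth. They were not tested and single out no gene as related to CCN1. For CCN2 the same ranking gave AEN (0.81), LIG3 (0.79) and BOK (0.78), but with 26 CCN2 counts or fewer per library it is no finding.

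The rest of the pathway was described from 4 gene lists. As a background to their counts, 32.6% of all genes tested were called higher and 32.5% lower in DMSO, and 32.0% higher and 31.5% lower in cisplatin, with median changes of 0.015 and 0.017. Of 15 Hippo kinases and upstream regulators, 14 were tested for exon counts, and MAP4K4 was not analysed here. In DMSO, 3 rose and 5 fell from 24 to 72 h, with a median of -0.18 against 0.015 over all genes. The scaffold FRMD6 rose from 80.5 ± 2.88 to 124 ± 3.82 CPM (SD, n = 3, log2 change 0.62, edgeR adjusted p = 7.00e-10), the kinase TAOK3 by 0.58 and the scaffold RASSF1 by 0.53. Lower were the kinases MARK2 (-0.50) and TAOK2 (-0.39) and the LATS cofactor MOB1A (-0.33). In cisplatin 3 rose and 3 fell, with a median of 0.0062. They were FRMD6 (0.74), TAOK3 (0.55) and RASSF1 (0.34), and TAOK2 (-0.38), MARK2 (-0.33) and MOB1A (-0.25). LATS1, the other LATS kinase, was at 2 CPM or lower in all libraries and did not pass.

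Among the 8 TEAD factors and cofactors, 6 were tested. TEAD3, another TEAD factor, rose from 5.12 ± 0.541 to 10.8 ± 1.02 CPM in DMSO (SD, n = 3, log2 change 1.08, edgeR adjusted p = 1.78e-08) and by 1.09 in cisplatin, against the fall of TEAD1. VGLL4, which competes with YAP1 for TEAD factors, rose by 0.46 and 0.59. AMOTL1, a relative of AMOTL2, fell from 4.79 ± 0.407 to 1.96 ± 0.307 CPM in DMSO (SD, n = 3, log2 change -1.29, edgeR adjusted p = 5.63e-06) and by 0.55 on the log2 scale in cisplatin. PTPN14, a phosphatase that binds YAP1, fell by 0.63 and 0.33 on the log2 scale. The list median was -0.081 in DMSO and -0.056 in cisplatin, near those of all genes (0.015 and 0.017).

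Only 7 of 15 further YAP/TEAD targets from published signatures passed the filter on low counts. In DMSO 1 rose and 5 fell, with a median of -0.20, and in cisplatin 1 rose and 2 fell, with a median of -0.027. The 6 of 7 called in DMSO and 3 of 7 in cisplatin stand against 65.1% and 63.5% of all genes. NT5E, the ecto-enzyme CD73, rose from 210 ± 6.74 to 283 ± 3.65 CPM in DMSO (SD, n = 3, log2 change 0.43, edgeR adjusted p = 8.60e-08) and by 0.43 in cisplatin. DOCK5 fell by 0.62 and 0.22 on the log2 scale, and the membrane-repair protein MYOF by 0.32 and 0.18. CRIM1 changed by -0.28 in DMSO, where it passed.

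The actin and SRF-linked genes are those whose products build or regulate the actin cytoskeleton and many of which are targets of the factor SRF. Of its 14 genes, 13 were tested. In DMSO 9 fell and 1 rose, with a median of -0.50, and in cisplatin 9 fell and 0 were called higher, with a median of -0.37. The share of all genes called lower was 32.5% and 31.5%, while the 10 and 9 of 13 called in either direction stand against 65.1% and 63.5%. ACTB, the cytoplasmic β-actin, fell from 7109 ± 443 to 3669 ± 150.4 CPM in DMSO (SD, n = 3, log2 change -0.95, edgeR adjusted p = 1.05e-13) and by 0.77 on the log2 scale in cisplatin. CNN2, which encodes a calponin, fell by 0.79 and 0.60, and FLNA, the crosslinker filamin A, by 0.75 in DMSO and 0.42 in cisplatin. TAGLN2 changed by -0.58 in DMSO and -0.61 in cisplatin. TAGLN rose by 0.97 in DMSO, from 0.771 ± 0.156 to 1.51 ± 0.438 CPM (SD, n = 3), a low level.

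The same lists were counted for intron counts over time. Beside them, 17.2% of all genes were called higher and 16.2% lower in DMSO and 16.4% and 15.4% in cisplatin, with medians of -0.011 and -0.016. Of the 13 Hippo regulators tested, 1 was higher and 3 lower in DMSO (median -0.28) and 1 higher and 2 lower in cisplatin (median -0.17). Of the 5 TEAD factors and cofactors, 2 were higher and 1 lower in DMSO (median -0.0996) and 0 were called in cisplatin (median 0.091). The 6 further targets had medians above 0, unlike in exon counts, at 0.085 in DMSO with 1 higher and 1 lower, and 0.087 in cisplatin with 2 higher and 1 lower. Of the 12 actin-linked genes, 2 were higher and 5 lower in DMSO (median -0.33), and 2 higher and 3 lower in cisplatin (median -0.17).

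In cisplatin against DMSO, 0 genes of the 4 lists had changed exon or intron counts by edgeR at either time. The median changes of exon counts at 24 h were 0.0026 for the Hippo regulators, -0.040 for the TEAD cofactors, -0.075 for the further targets and -0.039 for the actin-linked genes, against -0.00047 over all genes. The median changes of exon counts at 72 h were 0.080 for the Hippo regulators, 0.018 for the TEAD cofactors, 0.15 for the further targets and 0.067 for the actin-linked genes, against 0.00052 over all genes.

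**Figure D5:**
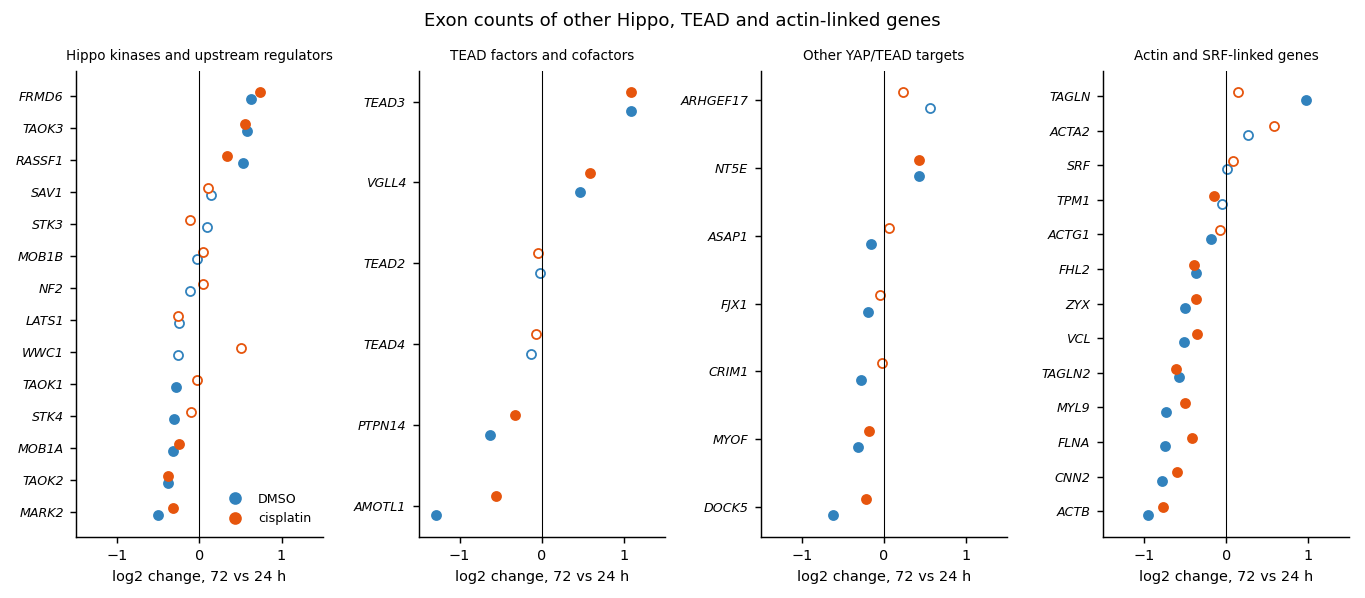
Log2 change of exon counts from 24 to 72 h (horizontal axes) for the tested genes of 4 lists, in DMSO (blue) and in cisplatin (orange). Filled points passed the adjusted threshold of 0.05 and open points did not. The actin and SRF-linked genes lie mostly left of 0, with 9 of 13 lower in each treatment.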

How the data were processed

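Poly(A) RNA of 12 libraries was sequenced as paired reads. Per the labels and the study's methods, the authors used Trim Galore 0.6.0 for trimming, HISAT2 2.1.0 for alignment to GRCh38 and HTSeq for counting fragments. The deposited values are raw exon and intron counts per gene, made with separate exon and intron annotations from Ensembl release 98. Fragments that reached beyond an exon were not counted as exonic, so counted exon length can be shorter than annotated. The strand setting is not given in the sources used here.

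Symbols and positions came from GENCODE release 44 (17485 of 17508 identifiers matched), and promoters from RefSeq. Exon entries were missing for 423 genes and intron entries for 913. Groups followed the labels. Exon and intron counts were each tested with edgeR 4.0.16 in R 4.3.3 (TMM, filterByExpr, quasi-likelihood, one fit to all 12 libraries). The edgeR ratio test needed 10 exon and 10 intron counts in the same library for 3 libraries. The logistic regression (Wald test) was run on the 6 libraries of a comparison, each with at least 1 count of both kinds. DESeq2 1.42.0 was an alternative, and others changed the normalization, filter, libraries fitted, replicate block and libraries left out. The exon, intron, ratio, logistic and DESeq2 tests were tested on simulated data for cisplatin against DMSO at 72 h only, where the logistic regression called many unchanged genes, far more than its threshold allows, and the others few. Exon and intron counts were simulated independently, without any spread that both kinds share, so calls of the ratio there may be too many. The other comparisons, the interaction and the alternatives were not simulated. The interaction on intron counts and the overlap of intron groups were added after the results were seen. Intervals are 95% model intervals. With 3 libraries a group, deeper libraries give less counting error. Plots were drawn with matplotlib 3.10.9.

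The members and gene lists were chosen with earlier results of these data known. All 10 members are named, with at most 3 rising and 3 falling genes per list and comparison by size of change, and the 3 genes most correlated with CCN1 and CCN2. Genes of the marker check named outside the lists were chosen after their values were seen.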

Additional observations from a re-analysis of the deposited data

How the results depend on the processing

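The calls of members over time in exon counts (6 in DMSO and 4 in cisplatin) and in intron counts (5 and 4) held in number under several alternatives. These were another normalization, no filter on low counts, DESeq2, a fit to the 6 libraries compared and a replicate block. As exceptions, the 6-library fit added YAP1 in intron counts, and DESeq2 or its size factors added CCN1 in exon counts. For the edgeR ratio (1 and 1) the number held with a minimum of 1 count, TMM factors for each kind, the 6-library fit and the replicate block. For cisplatin against DMSO these 3 measures gave 0 called members under every alternative run, though DESeq2 gave no adjusted p for the exon counts of AMOTL2, AXL and TEAD1 at 72 h. The logistic regression fell from 3 and 4 members over time and 2 for cisplatin at 24 h to 0, 0 and 0 with a quasi-binomial fit, which adds the spread between libraries. With 1 library left out at a time it called 1 to 3, 2 to 5 and 0 to 2. Of the recomputed changes of single members, 963 kept their sign and side of the threshold, 85 changed sign, 9 passed newly, 8 were lost and 3 had no adjusted p. The sign changes touched 40 of 100 changes, of which 0 were called in the fit reported, and 74 of them came from leaving out 1 library.

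With 1 library left out, exon changes for cisplatin at 24 h ran from -0.052 to 0.040 for AMOTL2, -0.015 to 0.048 for ANKRD1, -0.13 to 0.0074 for AXL and -0.083 to 0.0017 for TEAD1. At 72 h they ran from -0.0084 to 0.050 for WWTR1, -0.029 to 0.14 for AMOTL2 and -0.043 to 0.081 for ANKRD1, and over time in cisplatin from -0.077 to 0.015 for AMOTL2 and -0.10 to 0.028 for YAP1. Intron changes for cisplatin at 24 h ran from -0.081 to 0.18 for AMOTL2, -0.31 to 0.19 for AJUBA, -0.050 to 0.13 for CCN1, -0.22 to 0.040 for LATS2 and -0.24 to 0.052 for TEAD1. At 72 h they ran from -0.23 to 0.26 for AJUBA, -0.042 to 0.12 for YAP1, -0.12 to 0.091 for CCN1, -0.029 to 0.23 for ANKRD1 and -0.21 to 0.18 for TEAD1. Over time they ran in DMSO from -0.039 to 0.18 for AMOTL2 and -0.036 to 0.18 for AJUBA, and in cisplatin from -0.043 to 0.20 for AMOTL2 and -0.17 to 0.33 for AJUBA. Changes of the edgeR ratio for cisplatin at 24 h ran from -0.13 to 0.21 for WWTR1, -0.16 to 0.054 for LATS2 and -0.19 to 0.086 for TEAD1. At 72 h they ran from -0.17 to 0.0044 for AMOTL2, -0.088 to 0.037 for YAP1, -0.089 to 0.091 for CCN1, -0.15 to 0.022 for LATS2, -0.32 to 0.076 for AXL and -0.11 to 0.21 for TEAD1. Over time in DMSO they ran from -0.18 to 0.042 for AMOTL2, -0.027 to 0.18 for YAP1, -0.068 to 0.086 for ANKRD1, -0.33 to 0.16 for AXL and -0.16 to 0.17 for TEAD1, and in cisplatin from -0.16 to 0.040 for AMOTL2, -0.034 to 0.16 for ANKRD1 and -0.013 to 0.23 for TEAD1.

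The other 11 sign changes were as small. Intron changes of AJUBA with cisplatin at 24 h were -0.012 with DESeq2 and -0.0019 in the 6-library fit, and that of CCN1 at 72 h was -0.0012 with DESeq2. With TMM factors for each kind of count, the median ratio change of all genes with cisplatin moved from -0.086 to -0.0047 at 24 h. At 72 h that median moved from -0.084 to -0.0012, and over time in DMSO from 0.0998 to 0.024. So scaled, the ratio changed with cisplatin by 0.020 for LATS2 and 0.041 for TEAD1 at 24 h and by 0.052 for YAP1, 0.057 for CCN1, 0.017 for LATS2 and 0.0015 for AXL at 72 h. The ratio change of ANKRD1 over time in DMSO was -0.071 so scaled and -0.0043 with the replicate block.

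Counts over all genes moved more. Exon calls for cisplatin at 72 h went from 3 to 85 with DESeq2, to 154 without a filter and to between 0 and 72 with 1 library left out (72 without DMSO replicate 3). Without a filter, exon calls at 24 h went from 0 to 7 and the interaction from 0 to 20. Intron calls at 24 h went from 2 to 5 without a filter and to 0 with DESeq2 or the replicate block, and at 72 h from 4 to 19 without a filter and 26 in the 6-library fit. The ratio calls by edgeR at 72 h went from 2 to 4 with a minimum of 1 count, and those over time from 1075 to as few as 699 and from 1118 to as few as 636 with 1 library left out. Logistic calls went to 64, 97, 0 and 0 with the quasi-binomial fit. The cause was not tested.

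Same-numbered libraries had mean correlations of deviations in exon counts between -0.086 and 0.098, not all pairs over 0.1, so the numbers were not taken to pair the libraries. Every library correlated best with its own number in 2 of the 8 cases, exon counts for the times in cisplatin and intron counts for cisplatin against DMSO at 72 h (6 of 6 in each). The replicate block left the members called at 6 and 4 over time in exon counts and at 0 for cisplatin. Intron counts were fewest for CCN2 (at most 1), TEAD1 (26 to 103), AJUBA (21 to 114), WWTR1 (52 to 133), LATS2 (59 to 192) and AXL (22 to 193), and CCN2 had 1 to 26 exon counts, which widens their counting error.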

Other observations

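The expression of PECAM1 and CDH5 led to a look at further genes outside the marker lists, chosen after these values were seen. TIE1, an endothelial receptor, lay between 1649 and 2571 CPM of exon counts in the 12 libraries, KDR (the VEGF receptor) between 243 and 289 CPM and TEK (the angiopoietin receptor) between 135 and 154 CPM. VIM, the intermediate filament of mesenchymal and endothelial cells, lay between 6775 and 8454 CPM, and CDH1, the epithelial cadherin, was at 0 in every library. From 24 to 72 h in DMSO, PECAM1 changed by -0.82 (SE 0.045, edgeR adjusted p = 1.34e-13) and CDH5 by -0.56 (SE 0.048, edgeR adjusted p = 3.35e-10), while TIE1 rose by 0.43 (SE 0.054, edgeR adjusted p = 2.19e-07). In cisplatin the changes were -0.74 for PECAM1, -0.38 for CDH5 and 0.50 for TIE1, all called. KDR passed in cisplatin (0.15, SE 0.051, edgeR adjusted p = 0.0144) and not in DMSO (-0.014, SE 0.051), and TEK passed in neither (-0.044, SE 0.052, and -0.092, SE 0.052).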
